A study of Mus musculus with 4 samples.

Results

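Genes for the subunits of glutamate, GABA and glycine receptors were compared between EGFP-positive and EGFP-negative retinal cells, sorted at embryonic day E17.5 from mice that carry the BAC-Crx-EGFP transgene. The genes were taken by symbol (Gria, Grik, Grin, Grid, Grm, Gabra, Gabrb, Gabrg, Gabrd, Gabrr, Gabbr, Glra and Glrb), a rule that uses no measured values, from the genes that the platform annotation names singly. This gave 43 of 18920 genes, in 11 classes. A gene with several features (probe sets) was represented by its brightest feature on average over the 4 arrays. Gabrb2 alone had several, namely 3.

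All 4 samples carried the same transgene, a bacterial artificial chromosome in which regulatory sequences of the photoreceptor gene Crx drive the enhanced green fluorescent protein, on the 129Sv/Ev background. The positive fraction (2 arrays) holds cells in which these sequences were active, and the negative fraction (2 arrays) all other sorted retinal cells. Separate animals, litters or sorts are not named for the replicates, nor is pooling of retinas, so p-values reflect the spread between these samples alone, and that spread may be technical. The comparison asks how expression in photoreceptor precursors that express Crx differs from that in the remaining retinal cells.

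Glutamate is the transmitter of photoreceptors, bipolar cells and ganglion cells. AMPA, kainate and NMDA receptors are cation channels that it opens directly, and metabotropic glutamate receptors act through G proteins. GABA and glycine are the transmitters of most amacrine and horizontal cells. They open chloride channels that are rings of GABA-A, rho or glycine receptor subunits, and GABA also acts on GABA-B receptors, which couple to G proteins. In the embryonic retina these receptors appear before most synapses do.

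Values are linear intensities, and differences are log2 differences, EGFP-positive minus EGFP-negative, with limma's moderated standard error (SE). A gene was called at a Benjamini-Hochberg adjusted p under 0.05 over all 22431 features. Crx itself read 3628.7 and 4758.8 on the positive arrays and 292.2 and 370.1 on the negative ones, which checks the labels, although the sort used its regulatory sequences. Of 8 photoreceptor precursor markers 5 were called higher, and of 9 progenitor markers Sox2 was called lower. Over all features, 0.82% were called higher and 0.143% lower. Markers of ganglion cells followed the replicate number more than the fraction, with replicate 2 above replicate 1 by a median of 0.79 among positive and 1.20 among negative arrays over 12 genes. In sorted populations such as these, fewer cells of a type and less RNA per cell cannot be told apart.

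None of the 43 receptor genes was called by limma fitted without the replicate number, against 0.963% of all features (0.82% higher and 0.143% lower). With that number as a block some were called, as given in the section on how the results depend on the processing. At an unadjusted p under 0.05, the positive arrays were higher for 9 genes and lower for 2, or 25.6% together against 19.2% of all features (9.34% higher and 9.83% lower). A positive difference was seen for 30 of 43 genes, or 69.8% against 47.8% of all features, with a median of 0.14 against -0.01. Both positive arrays read above both negative arrays for 21 genes, against 22.3% of all features, and below both for 4 genes, against 25.3%. The median SE of the 43 genes was 0.13, and the smallest difference called over all features was 0.75 in size, which 3 of the receptor genes exceeded: Gabbr2, Grik3 and Gria3. For 36 genes the 95% interval of the difference lay within 1 log2 unit on either side of 0.

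**Figure D1:**
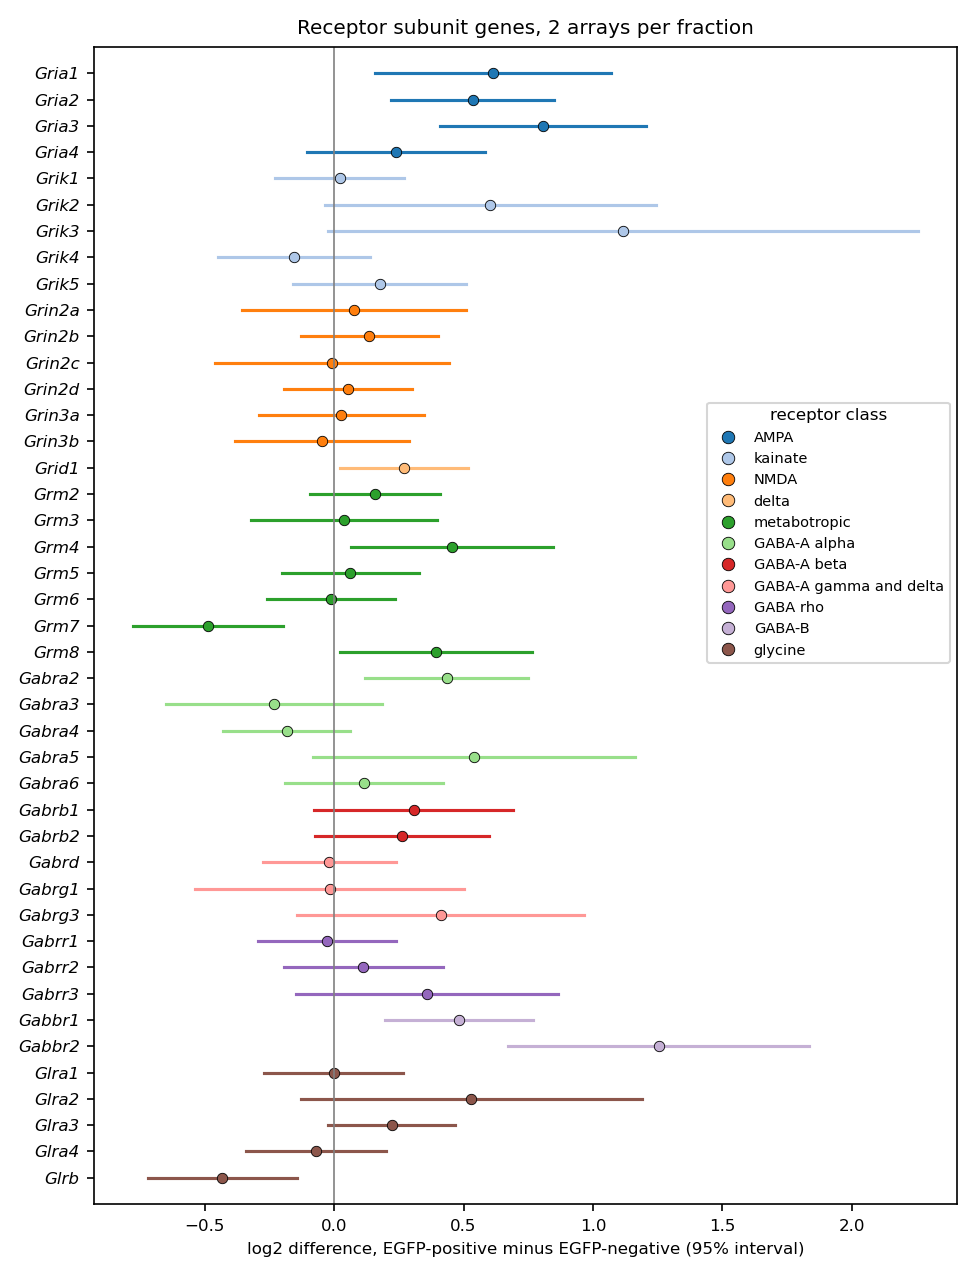
Log2 difference between EGFP-positive and EGFP-negative cells (x axis) for each of the 43 receptor subunit genes (y axis, coloured by receptor class), with points for the estimate and lines for the 95% interval from limma, 2 arrays per fraction. Gabbr2 lies farthest to the right at 1.25 and Grm7 farthest to the left at -0.49, and the 6 NMDA subunit genes lie close to 0.

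The largest difference belonged to Gabbr2, which encodes the GABA-B subunit that couples to the G protein and carries the receptor to the cell surface. Its feature (10512807, Entrez gene 242425) read 452.3 and 722.4 on the positive arrays and 244.5 and 235.0 on the negative ones. Both positive arrays were above both negative arrays, and the positive replicates lay farther apart than the negative ones. As log2 intensity this was 9.16 ± 0.48 against 7.91 ± 0.04 (SD, n = 2), a 2.38-fold difference (1.25 ± 0.23, SE, limma adjusted p = 0.0837) with a 95% interval from 0.67 to 1.84. Gabbr1, which encodes the subunit that binds GABA, read 971.0 and 1040.6 against 680.5 and 762.2, again without overlap (0.48 ± 0.11, limma adjusted p = 0.116). Functional GABA-B receptors need both subunits.

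Gabbr2 crossed the threshold when positive replicate 1 was left out (1.59, limma adjusted p = 0.00698), as did Gria3, Gabra5 and Gabrg3. In that fit, where the remaining positive array is assumed to vary like the negative ones, 4 of 43 receptor genes were called, all higher, beside 6.37% of all features (2.97% higher and 3.4% lower). Without positive replicate 2 the difference of Gabbr2 was 0.92 (limma adjusted p = 0.0684), and no receptor gene was called there or without either negative array.

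The 250 bases before the annotated start of Gabbr2 held no copy of the core motif of CRX, TAATCC or its reverse complement GGATTA. Of 43 receptor genes 32 had an entry among RefSeq promoters (GRCm38.p6), with 39 starts in all, and the motif lay in 2 of these windows, those of Gabra2 and Gabrr2, or 5.13% against 6.25% of 32851 promoter windows. The windows are shown because the cells were sorted by Crx activity and because they set the motif beside the differences. They are written 5′ to 3′ on the gene's strand, with the motif in capitals. Those of Gabra2 (chr5:71095850-71096099, minus strand) and Gabrr2 (chr4:33062862-33063111, plus strand) hold 1 copy each, and that of Gabbr2 (chr4:46991715-46991964, minus strand) is the one without it.
Gabra2: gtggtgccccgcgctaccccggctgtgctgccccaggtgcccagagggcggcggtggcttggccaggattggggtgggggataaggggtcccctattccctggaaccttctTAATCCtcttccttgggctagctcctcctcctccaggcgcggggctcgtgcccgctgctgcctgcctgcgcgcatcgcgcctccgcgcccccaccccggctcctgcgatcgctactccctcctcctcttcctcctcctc
Gabrr2: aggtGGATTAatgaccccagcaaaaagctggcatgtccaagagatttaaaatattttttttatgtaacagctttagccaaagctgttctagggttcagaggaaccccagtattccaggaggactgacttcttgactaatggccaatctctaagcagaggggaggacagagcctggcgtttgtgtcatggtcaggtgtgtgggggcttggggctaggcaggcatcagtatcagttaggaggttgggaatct
Gabbr2: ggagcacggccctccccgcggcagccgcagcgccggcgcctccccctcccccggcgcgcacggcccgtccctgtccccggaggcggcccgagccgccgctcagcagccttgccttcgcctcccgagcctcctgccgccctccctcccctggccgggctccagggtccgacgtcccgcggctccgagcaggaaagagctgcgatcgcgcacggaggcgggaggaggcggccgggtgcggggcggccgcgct
The E-box form CAGATG (reverse complement CATCTG), a sequence that NEUROD1 can bind, was found in the windows of Gabra5, Gabrr1 and Grin3b, or 7.69% of the 39 against 14.4% of all. The log2 difference was 0.43 for Gabra2 and 0.11 for Gabrr2, which hold the CRX core, and 1.25 for Gabbr2, which does not. Gabbr2 was picked after its values were seen, as the gene with the largest difference, and other windows without the motif are not shown. A link between the motif and the differences was not tested. A match describes the letters in the window and does not show a binding site.

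All 4 AMPA receptor genes read higher on both positive arrays than on both negative ones, as did 22.3% of all features. Their median difference was 0.57. AMPA receptors carry most fast excitation in the central nervous system. Gria3 read 157.6 and 204.7 on the positive arrays and 97.8 and 107.9 on the negative ones, 7.49 ± 0.27 against 6.68 ± 0.10 as log2 intensity (SD, n = 2). Its difference was 0.81 ± 0.16, or 1.75-fold (limma adjusted p = 0.0874), and it was 0.99 without positive replicate 1 (limma adjusted p = 0.0238). Gria1 read 273.8 and 198.3 against 161.0 and 143.9, so that replicate 1 was the higher one in each fraction (0.61 ± 0.18, limma adjusted p = 0.162). Gria2, whose product makes the channel nearly impermeable to calcium once its RNA is edited, read 333.0 and 390.3 against 239.5 and 258.7 (0.53 ± 0.12, limma adjusted p = 0.114). Gria4 differed least, with 724.0 and 714.9 against 548.0 and 678.4 (0.24 ± 0.14, limma adjusted p = 0.437). Gria1, Gria2 and Gria3 had an unadjusted p under 0.05, at which 9.34% of all features were higher. Gria1, Gria2 and Gria4 are given in full as members of a class of 4, chosen after their values were seen.

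Kainate receptor genes divided into Grik2 and Grik3, with large differences and a large spread between replicates, and Grik1, Grik4 and Grik5, with differences from -0.16 to 0.18. Mean intensity of Grik1 lay below the 25th percentile over all features (107.6). Grik1, Grik2 and Grik3 encode subunits that form channels on their own, and Grik4 and Grik5 encode high-affinity subunits that need one of them as a partner. Grik3 read 1202.7 and 489.7 on the positive arrays and 435.9 and 288.0 on the negative ones. The positive arrays were both above the negative ones, but the lower of them was close to the higher negative array, and replicate 1 exceeded replicate 2 in each fraction. The difference was 1.12 ± 0.45 (limma adjusted p = 0.271), with a 95% interval from -0.03 to 2.26. Leaving out positive replicate 1 gave 0.47, and leaving out positive replicate 2 gave 1.76.
Grik2, chosen after its values were seen, read 631.0 and 954.2 against 434.0 and 601.1, with replicate 2 the higher one in each fraction (0.60 ± 0.25, limma adjusted p = 0.288). Grik5 read 815.4 and 760.0 against 766.7 and 634.2 (0.17 ± 0.13, limma adjusted p = 0.581), so the fractions overlapped. Grik4 was among the 4 genes below the negative arrays on both positive ones (-0.16 ± 0.12, limma adjusted p = 0.578).

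**Figure D2:**
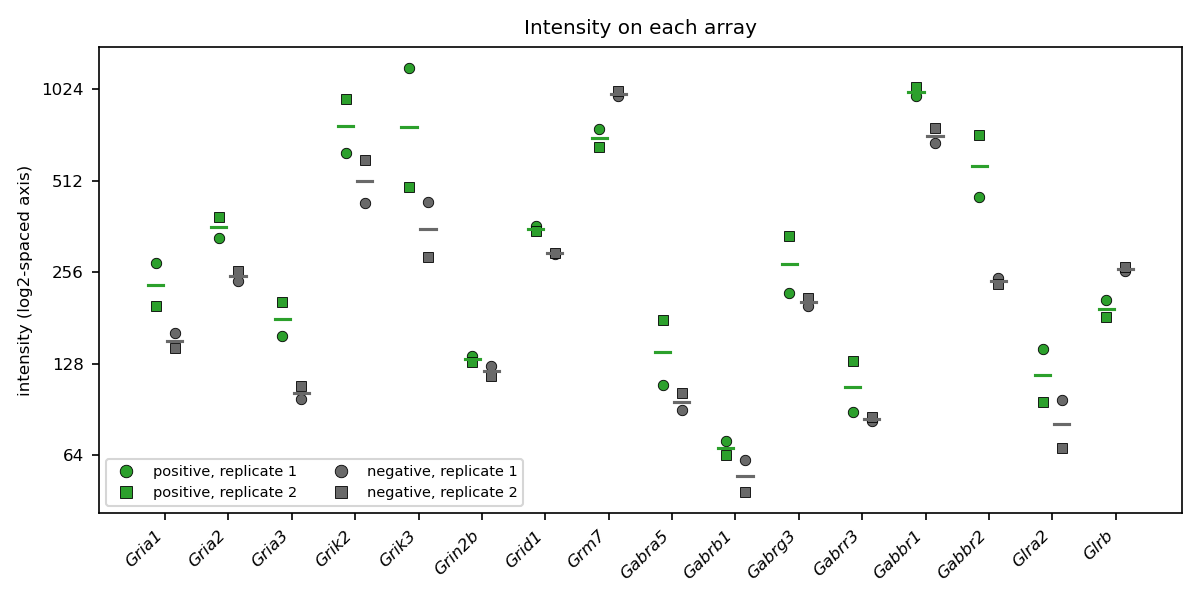
Intensity on each array (y axis, log2-spaced) of 16 receptor subunit genes (x axis), with green for EGFP-positive and grey for EGFP-negative cells, circles for replicate 1, squares for replicate 2 and bars for the mean of the log2 values in each fraction. Grik3 shows the widest spread between positive replicates, from 489.7 to 1202.7, and Glrb and Grm7 lie lower in the positive fraction.

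The 6 measured NMDA receptor genes, which do not include Grin1, had differences close to 0 on dim values. NMDA receptors are calcium-permeable channels that open with glutamate and a co-agonist when the cell is depolarised. The 6 measured members encode regulatory and glutamate- or glycine-binding subunits (Grin2a, Grin2b, Grin2c, Grin2d, Grin3a and Grin3b), and their differences ran from -0.05 to 0.14, with a median of 0.04. The largest was that of Grin2b, the main partner subunit in the embryonic brain, which read 136.2 and 129.5 on the positive arrays and 125.5 and 116.5 on the negative ones (0.14 ± 0.10, limma adjusted p = 0.592, 95% interval from -0.13 to 0.40). The 95% intervals of all 6 lay between -0.46 and 0.51, so differences larger than this in either direction lie outside them. Grin2a, Grin2c, Grin3a and Grin3b had differences whose sign changed when 1 array was left out. Grid1, the 1 measured member of the delta receptors, which act as synaptic organisers, read 363.2 and 350.3 against 294.5 and 296.6 (0.27 ± 0.10, limma adjusted p = 0.226), without overlap and with little spread in either fraction.

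Metabotropic glutamate receptor genes held the most negative difference of all 43. Grm7 encodes a presynaptic receptor of a group (Grm4, Grm6, Grm7 and Grm8) that, like some other metabotropic receptors, inhibits adenylyl cyclase. It read 756.2 and 662.1 on the positive arrays and 974.8 and 1009.4 on the negative ones, without overlap, or 9.47 ± 0.14 against 9.95 ± 0.04 as log2 intensity (SD, n = 2). The difference was -0.49 ± 0.11 (limma adjusted p = 0.116), with a 95% interval from -0.78 to -0.20. Grm4 and Grm8, which encode receptors of the same group as Grm7, had positive differences. Grm4 read 175.6 and 229.1 against 150.5 and 142.4 (0.45 ± 0.15, limma adjusted p = 0.208), and Grm8 read 133.1 and 152.4 against 97.6 and 120.4 (0.39 ± 0.15, limma adjusted p = 0.239). Both were chosen after their values were seen, and both separated the fractions without overlap. Grm6, the fourth gene of that group, encodes the receptor by which ON bipolar cells sense photoreceptor glutamate. It read 129.2 to 134.1 over the 4 arrays, with a difference of -0.014 that turned positive once arrays were centred on their medians (0.011). Grm2, Grm3 and Grm5 differed by 0.16, 0.04 and 0.06.

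GABA-A receptor genes under the rule, which leaves out Gabre, Gabrp and Gabrq, had 6 of 10 members above 0 and a median difference of 0.19. Of the 10, 4 (Gabra4, Gabra6, Gabrb1 and Gabrg1) lay below the 25th percentile of mean intensity over all features (107.6). Alpha subunits form the GABA binding site together with beta subunits, and the alpha subunit sets the drug sensitivity and location of the receptor. Gabra5 read 109.1 and 178.5 on the positive arrays and 89.8 and 102.5 on the negative ones (0.54 ± 0.25, limma adjusted p = 0.327). It was 0.90 without positive replicate 1 (limma adjusted p = 0.0339) and 0.19 without positive replicate 2. Gabra2, chosen after its values were seen, read 178.8 and 196.7 against 149.5 and 128.8 (0.43 ± 0.12, limma adjusted p = 0.157). Gabra3 read 203.0 and 216.9 against 212.7 and 285.4 (-0.23 ± 0.17, limma adjusted p = 0.557), so the fractions overlapped. Gabra4 read 74.5 and 72.9 against 84.0 and 83.4, without overlap but with dim values (-0.18 ± 0.10, limma adjusted p = 0.399), and Gabra6, a subunit known from cerebellar granule cells, differed by 0.12.

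Among the beta subunit genes, Gabrb1 read 71.3 and 63.9 on the positive arrays and 61.5 and 48.4 on the negative ones (0.31 ± 0.15, limma adjusted p = 0.366). The 3 features of Gabrb2 gave differences of 0.26, 0.31 and 0.02 with overlapping 95% intervals. The latter 2 features lay below the 25th percentile, as did Gabrb1. Gabrg3, which encodes a gamma subunit, read 218.4 and 338.2 against 197.8 and 211.2 (0.41 ± 0.22, limma adjusted p = 0.405). Leaving out positive replicate 1 gave 0.73 (limma adjusted p = 0.0459), and leaving out positive replicate 2 gave 0.096. Gabrg1 and Gabrd, the latter a subunit of receptors outside synapses, differed by -0.018 and -0.019, and both turned positive once arrays were centred on their medians (0.0064 and 0.0058).

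The rho subunits form the GABA channels that mature bipolar cells carry on their axon terminals. Gabrr3 read 88.5 and 131.0 on the positive arrays and 82.8 and 85.3 on the negative ones, with positive replicate 2 standing apart from the other 3 arrays (0.36 ± 0.20, limma adjusted p = 0.430). Gabrr1 read 61.2 to 66.7 over the 4 arrays, and its difference of -0.028 changed sign when positive replicate 2 (0.022) or negative replicate 1 (0.018) was left out. Gabrr2 read 174.3 and 201.0 against 166.1 and 180.5, with overlap (0.11 ± 0.12, limma adjusted p = 0.726). Both Gabrr1 and Gabrr3 lay below the 25th percentile of mean intensity.

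Glycine receptor genes had a median difference of -0.002, with 2 of 5 above 0, and 4 of the 5, all but Glrb, lay below the 25th percentile of mean intensity. Glrb, which encodes the beta subunit that anchors the receptor to gephyrin at synapses, read 207.7 and 181.7 on the positive arrays and 258.3 and 266.1 on the negative ones, without overlap (-0.43 ± 0.11, limma adjusted p = 0.137, 95% interval from -0.72 to -0.14). It was chosen after its values were seen. Glra2 encodes the alpha subunit that predominates in embryonic neurons and can form channels without the beta subunit. It read 143.5 and 95.5 against 97.1 and 67.7 (0.53 ± 0.26, limma adjusted p = 0.364). Positive replicate 2 lay below negative replicate 1, and replicate 1 exceeded replicate 2 in each fraction. Glra1, Glra3 and Glra4 read 40.8 to 76.0 over all arrays and differed by -0.0025, 0.22 and -0.071. The sign of Glra1 turned once arrays were centred on their medians (0.022).

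Some receptor genes lie next to each other in the genome, GABA-A genes in clusters among them. In the RefSeq order of protein-coding genes 6 pairs of the 43 were neighbours. Gria2 and Glrb, neighbours on chromosome 3, had differences of 0.53 and -0.43. Gabrg3 and Gabra5, neighbours on chromosome 7, had 0.41 and 0.54, and Gabra6 and Gabrb2 on chromosome 11 had 0.12 and 0.26. Gabrr2 and Gabrr1 on chromosome 4 had 0.11 and -0.028. On chromosome 5, Gabrg1 and Gabra2 had -0.018 and 0.43, and Gabra4 and Gabrb1 had -0.18 and 0.31. The signs of Gabrr1 and Gabrg1 changed when 1 array was left out.

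The log2 difference between replicates of the receptor genes had a median size, regardless of sign, of 0.16 among positive and 0.12 among negative arrays. For the difference between fractions it was 0.22. A replicate difference sets 1 array against 1, and the fraction difference a mean of 2 arrays against a mean of 2. These sizes are therefore unlike measures. Grik3 and Glra2 were lower in replicate 2 by at least 0.5 on the log2 scale in both fractions, as 1.92% of all features differed in either direction. For Grik3 the replicate difference was -1.30 among positive and -0.60 among negative arrays, and for Glra2 it was -0.59 and -0.52. Grik2 went the other way, by 0.60 and 0.47. Gabra5 (0.71 and 0.19), Gabbr2 (0.68 and -0.06), Gabrg3 (0.63 and 0.09) and Gabrr3 (0.57 and 0.04) differed mainly between the positive replicates.

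**Figure D3:**
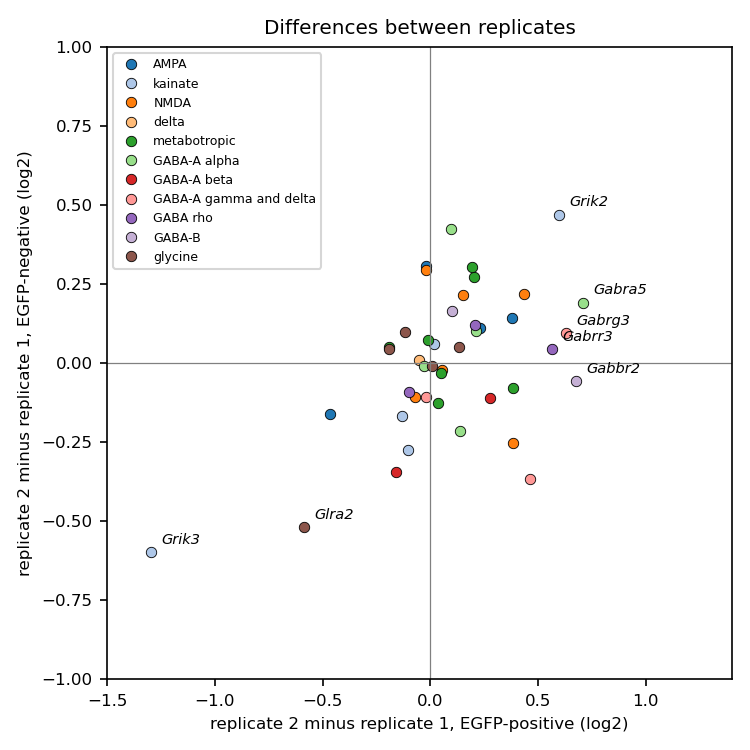
Log2 difference of replicate 2 minus replicate 1 in EGFP-positive (x axis) and EGFP-negative cells (y axis) for the 43 receptor subunit genes, coloured by class, with names where either difference is at least 0.5 in size. Grik3 (-1.30 and -0.60) and Glra2 (-0.59 and -0.52) lie at the lower left, and Gabbr2, Gabrg3 and Gabrr3 lie at the right near 0 on the y axis.

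Markers of some other retinal cells differed between the arrays too. Of all features, 47.8% had a difference above 0 and 0.82% were called higher. The difference was above 0 for all 10 amacrine cell markers (median 0.45), and 2 were called higher. Their summed intensity was 6587.3 and 7035.3 on the positive arrays and 4417.4 and 4430.3 on the negative ones. Of 5 horizontal cell markers 4 were above 0, with sums of 2012.6 and 3700.7 against 1733.2 and 1648.4. The high sum of positive replicate 2 came mainly from Onecut1 (456.0 and 1003.0 on the positive arrays) and Onecut2 (504.3 and 1608.4). On the same arrays Lhx1 read 142.1 and 181.4, Prox1 854.4 and 848.3, and Calb1 55.8 and 59.6. Of 12 ganglion cell markers 8 were above 0, and the sums were 5976.5 and 10755.2 against 4545.3 and 10740.5. Of 7 bipolar cell markers 2 were above 0, with sums of 1195.9 and 1096.5 against 1198.7 and 1055.0. Of 9 progenitor markers 8 were below 0, with sums of 23524.9 and 17548.8 against 33211.2 and 33209.6. Of 6 glial markers the difference was above 0 for 3, with summed intensities of 4931.8 and 3354.5 against 6948.7 and 5336.2. The largest values in these sums were those of Glul (2374.1 and 1735.8 against 3915.9 and 3120.0). Glul, Slc1a3 and Rlbp1 differed by -0.78, -1.27 and -0.89, and Apoe, Gfap and Aqp4 by 0.56, 0.10 and 0.01. Below the 25th percentile of mean intensity lay 1 amacrine, 1 horizontal, 2 bipolar and 1 glial marker. The part of these cells in the receptor differences was not tested.

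Of 51 genes of receptor partners (auxiliary subunits, scaffolds, adhesion proteins and the mGluR6 cascade), 46 were measured. The difference was above 0 for 34 of these (median 0.15), and 1 was called higher and none lower by limma. Of all features 47.8% were above 0, and 0.82% were called higher and 0.143% lower. At an unadjusted p under 0.05, 15 of the 46 were higher and 2 lower, beside 9.34% and 9.83% of all features. The gene called was Gnb3, a G protein beta subunit shared by cone transducin and the ON bipolar cascade, with 1731.2 and 1576.2 on the positive arrays and 207.4 and 248.8 on the negative ones (2.86 ± 0.13, limma adjusted p = 0.00576). Without negative replicate 1 its difference was 2.73 (limma adjusted p = 0.107) and without negative replicate 2 it was 2.99 (limma adjusted p = 0.115), and in neither fit was any feature called. Nrxn3, a presynaptic adhesion protein, read 949.2 and 1709.8 against 457.5 and 619.7 (1.26 ± 0.31, limma adjusted p = 0.125). It was 1.68 without positive replicate 1 (limma adjusted p = 0.0153), a fit in which 5 of the 46 partner genes and 2.97% of all features were called higher. Rgs7, a regulator of G protein signalling, read 191.6 and 276.5 against 96.3 and 149.9 (0.94 ± 0.27, limma adjusted p = 0.161).

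By role, the 12 measured auxiliary subunits of AMPA and kainate receptors had a median difference of 0.12, with 7 above 0 and none called. Among the 12 measured scaffolds of excitatory synapses 10 were above 0, with a median of 0.15. Dlg4, which encodes the postsynaptic scaffold PSD-95, read 933.0 and 829.9 on the positive arrays and 565.1 and 595.7 on the negative ones (0.60 ± 0.11, limma adjusted p = 0.0850; picked once its values were known). The 4 measured genes listed for inhibitory synapses (Gphn, Nlgn2, Gabarap and Gabarapl1) were all above 0, with a median of 0.21. For Gabarap the difference was close to 0 (0.010 ± 0.21). The most negative differences were those of the postsynaptic adhesion genes Nlgn1 (-0.30 ± 0.10, limma adjusted p = 0.193) and Nlgn3 (-0.29 ± 0.10, adjusted p = 0.227) and of the scaffold gene Homer2 (-0.17 ± 0.11, adjusted p = 0.485). In the ON bipolar cascade 9 of 11 genes were above 0, with a median of 0.16. The channel gene Trpm1, which lay below the 25th percentile of mean intensity, differed by -0.16. Gnao1, the G protein alpha subunit that mGluR6 activates and that many neurons express, read 1315.3 and 1575.9 against 821.7 and 823.3 (0.81 ± 0.13, limma adjusted p = 0.0673; picked once its values were known).

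**Figure D4:**
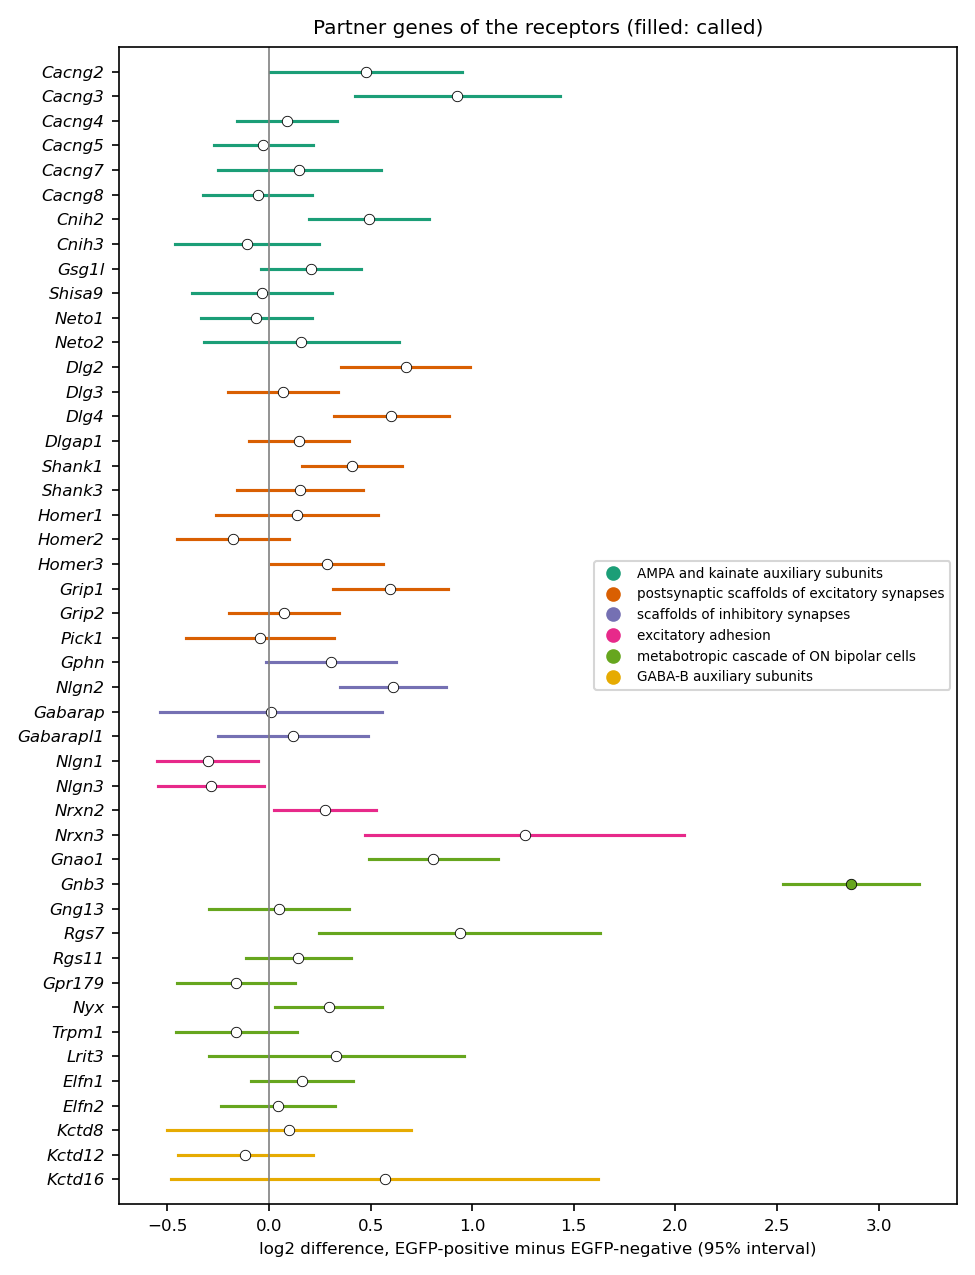
Log2 difference between EGFP-positive and EGFP-negative cells (x axis) for 46 partner genes of the receptors (y axis, coloured by role), with points for the estimate, filled where called, and lines for the 95% interval from limma, 2 arrays per fraction. Gnb3 at 2.86 is the 1 filled point, and Nlgn1 at -0.30 lies farthest to the left.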

How the data were processed

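The deposited values are linear intensity values, 1 column per array. Per the submitters' processing notes they were made with RMA (background correction, quantile normalisation and probe summarisation) and the genome build mm8. The sources used here give no version or filter. The linear scale was inferred from the range, 18.9 to 36625.2, with array medians of 218.4 to 222.9. The platform annotation names 1 gene for 20176 of 22431 features, several for 412 and none for 1843.

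Log2 was taken without a pseudocount, and limma 3.58.1 in R 4.3.3 (lmFit, eBayes without a trend) was fitted to all features and 4 arrays, without the replicate number. P-values are two-sided. Variances were estimated with 5.26 degrees of freedom (2 residual, the rest from the prior), and precision is limited by the number of arrays. The scripts were tested on simulated data. Full values are given for called receptor genes, those differing by at least 0.75 and the largest of each class, and for partner genes that were called or among the 3 largest in each direction. Other genes given in full were chosen after their values were seen. The members follow a rule on symbols alone, but this rule and the lists were chosen with earlier results of these data known. Alternatives were another quantile normalisation, median centring, a filter on dim features, log2(value + 16), eBayes with a trend and with a robust trend, the mean over a gene's features, the replicate number as a block and leaving out each array. Promoters come from RefSeq (GRCm38.p6), and because the arrays' build is mm8 no other coordinates are given.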

Additional observations from a re-analysis of the deposited data

How the results depend on the processing

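With all 4 arrays and without the block, no receptor gene was called under any alternative. The filter on dim features left 31 of the 43 to test. Of 43 receptor genes 31 kept their sign under all 12 alternatives, and the others had differences of at most 0.075 in size. The labels share replicate numbers without saying that they pair the samples. Over all features the replicate differences of the fractions correlated at 0.48. With the replicate number as a block, limma called 1377 features higher and 1500 lower, or 12.8% of all. It called 8 receptor genes higher (Gabbr1, Gabbr2, Gria1, Gria2, Gria3, Grik2, Grik3 and Glra2) and Grm7 lower, with adjusted p from 0.0121 for Gria3 to 0.0407 for Grm7, and 12 partner genes higher. Of features called lower there were 21 with eBayes with a trend and 51 with the mean over a gene's features. Leaving out each array in turn gave 0 to 667 features called higher and 0 to 762 lower, 0 to 4 receptor genes and 0 to 5 partner genes called higher. Centring each array on its median turned Gabrd (0.0058), Gabrg1 (0.0064), Grin2c (0.017), Glra1 (0.022) and Grm6 (0.011). Leaving out 1 array turned 12 of them, over the ranges -0.078 to 0.022 for Gabrr1, -0.073 to 0.036 for Gabrd, -0.25 to 0.21 for Gabrg1, -0.12 to 0.27 for Grin2a, -0.23 to 0.21 for Grin2c, -0.079 to 0.13 for Grin3a, -0.19 to 0.10 for Grin3b, -0.069 to 0.064 for Glra1, -0.0093 to 0.051 for Grik1, -0.099 to 0.17 for Grm3, -0.0017 to 0.13 for Grm5 and -0.038 to 0.0104 for Grm6. The cause of these changes was not tested. With 2 arrays per fraction, the smallest difference called over all features was 0.75 in size.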

Other observations

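Acetylcholine receptor genes were looked at after the values were seen, since some waves of activity in the developing retina use acetylcholine. The difference was above 0 for 9 of 16 nicotinic receptor genes (median 0.06), beside 47.8% of all features, and none of the 16 was called by limma. At an unadjusted p under 0.05, 2 of the 16 were higher and 1 lower, beside 9.34% and 9.83% of all features. The largest differences were those of Chrnb4 and Chrna3, which encode subunits that assemble together. Chrnb4 read 847.3 and 1475.9 on the positive arrays and 243.6 and 345.1 on the negative ones, without overlap (log2 difference 1.95 ± 0.31, SE, limma adjusted p = 0.0681). It was called without positive replicate 1 (2.35, limma adjusted p = 0.00863). Chrna3 read 784.2 and 1984.8 against 335.9 and 936.3, so the fractions overlapped and replicate 2 exceeded replicate 1 in both (1.15 ± 0.62, limma adjusted p = 0.412). The 5 muscarinic receptor genes had differences from -0.08 to 0.12.

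The rule leaves out some related genes. The GABA-A subunit genes Gabre, Gabrq and Gabrp differed by -0.48 ± 0.13, -0.24 ± 0.11 and -0.02 ± 0.10 (limma adjusted p = 0.139, 0.321 and 0.958). Gabre and Gabrq read lower on both positive arrays than on both negative ones. Grid2ip differed by -0.12 (limma adjusted p = 0.609). Grina, named for NMDA receptors although its product is no channel subunit and so no member of the families above, was higher in the positive fraction. It read 2523.5 and 3002.5 against 858.3 and 924.2 (log2 difference 1.63 ± 0.13, limma adjusted p = 0.0143). Without negative replicate 1 the difference was 1.57 (limma adjusted p = 0.190) and without negative replicate 2 it was 1.68 (limma adjusted p = 0.131), fits in which no feature was called.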
